A study of Rattus norvegicus with 8 samples.

Results

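The nuclear genes of the respiratory chain and of ATP synthase were compared between rat livers perfused with hypoosmotic and with normoosmotic buffer. They were taken by gene symbol, as those starting with Nduf, Sdha to Sdhd, Sdhaf, Uqcr, Cox and a digit, or Atp5, and 89 of the 14511 named genes of the arrays met this rule. Of the 89, 75 were classed by symbol as subunits, 13 as assembly factors and 1, Atp5if1, as the inhibitor protein of ATP synthase. The subunits include the pseudogene symbols Ndufs6-ps1 and Cox6c-ps1, and the assembly factors include the supercomplex factor Cox7a2l. The organs were from male Wistar rats of 6 to 10 weeks of age, and all were sampled at 180 min of perfusion with Krebs-Henseleit buffer, a salt solution held at its pH by bicarbonate. In the normoosmotic group (305 mosm/L, n = 4) the buffer had the osmolarity of plasma, and in the hypoosmotic group (225 mosm/L, n = 4) it was dilute, which makes hepatocytes swell. A perfused organ without blood was the model in both groups. RNA was read on 8 Affymetrix arrays with probes along the whole transcript, and all levels below are the deposited log2 values.

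Oxidative phosphorylation takes place in the inner mitochondrial membrane. Complex I (NADH dehydrogenase, Nduf genes) and complex II (succinate dehydrogenase, Sdh genes) pass electrons to coenzyme Q, complex III (Uqcr genes) passes them to cytochrome c, and complex IV (cytochrome c oxidase, Cox genes) passes them to oxygen. The proton gradient built on the way drives ATP synthase (Atp5 genes). Most subunits are encoded in the nucleus, and dedicated assembly factors insert metal centres and join the subunits without staying in the finished complex. In hepatocytes these complexes pay for the synthesis of urea and glucose. The subunits encoded by mitochondrial DNA were not analysed here.

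Whether each array stands for a different rat is not given in the labels. The spread behind the p-values may therefore be technical. Array medians over all probe sets lay between 3.92 and 4.05, and 4 arrays per group limit the precision. The 10 hepatocyte markers had a median level of 11.90 and a median change of -0.05, and 0 of them passed the test. The 6 sinusoidal endothelium markers had a median change of 0.34 with 1 rise (Kdr, a receptor of endothelial growth factor), and ran from 0.13 to 0.66. The 10 stellate cell markers had one of 0.21 with 1 rise (Colec11, a collectin), and ran from -0.57 to 0.55 with 9 above 0. The rises were 16.7% and 10% of these lists, against 2.45% of all genes. The 10 Kupffer cell markers had a median change of 0.18 with 0 calls, and ran from -0.25 to 0.47 with 6 above 0. Markers of bile duct (5), blood cells (7) and striated muscle (7) gave 0 calls, with median levels of 3.76, 3.05 and 3.25. The part of other liver cells in the changes below was not tested. In whole tissue, fewer cells of a type and less RNA per cell cannot be told apart.

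The respiratory chain genes were slightly higher as a group in hypoosmotic livers, with 3 single genes past the test. The change (hypoosmotic minus normoosmotic mean, log2) was above 0 for 81 of 89 genes, where 53.2% of all 14511 genes were above 0. The median change was 0.175, against 0.015 for all genes. By limma with Benjamini-Hochberg adjustment over all genes, 3 of 89 (3.37%) rose and 0 fell at an adjusted p under 0.05, while 7.07% of all genes passed, 2.45% with a rise and 4.62% with a fall. The share of rises was thus near that of all genes. At an unadjusted p under 0.05, 18 of 89 (20.2%) were higher, against 9.77% of all genes, and 1 was lower, against 10.9%. The 4 hypoosmotic values lay above all 4 normoosmotic values in 8 of 89 (8.99%), against 5.33% of all genes, and below them in 0, against 8.21%. All 89 were read from the same 8 arrays and share whatever sets an array high or low, so these counts are not those of independent genes.

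**Figure D1:**
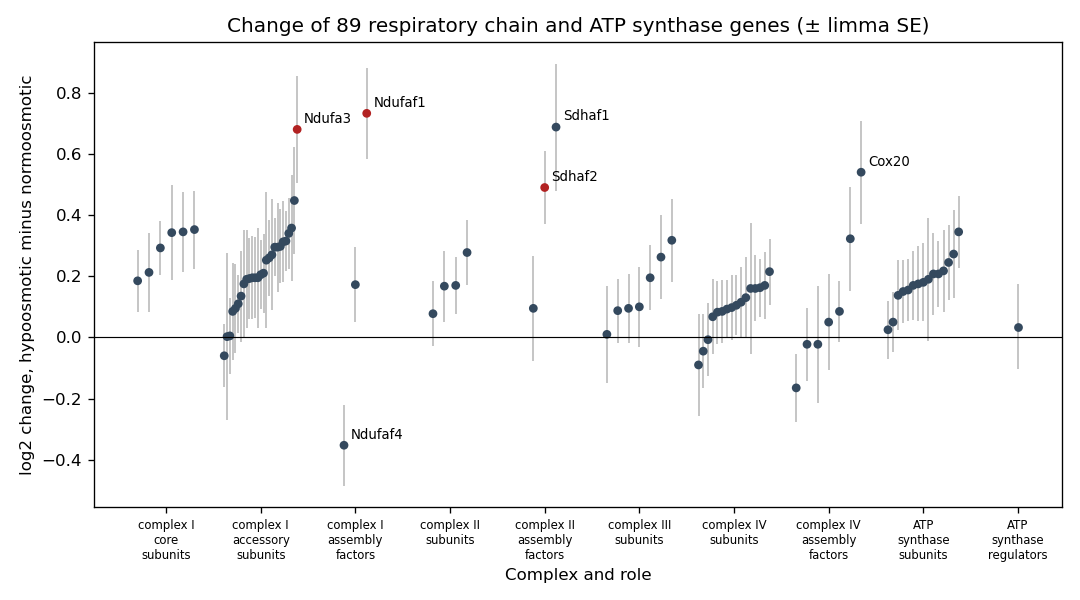
Each point is 1 of the 89 genes, placed by complex and role (x axis), with its log2 change from normoosmotic to hypoosmotic perfusion and limma SE (y axis, n = 4 per group); red marks an adjusted p under 0.05. Nearly all subunits sit between 0 and 0.4, while assembly factors spread from -0.35 (Ndufaf4) to 0.73 (Ndufaf1).

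The arrays of the groups overlapped in this shared offset. Taking each gene relative to its own mean over the 8 arrays, the median deviation of the 89 genes was -0.18, 0.06, -0.06 and -0.18 on normoosmotic arrays 1 to 4, and 0.14, 0.22, 0.03 and -0.04 on hypoosmotic arrays 1 to 4. Normoosmotic array 2 thus lay above hypoosmotic arrays 3 and 4. On that array 59 of 89 genes were above their own mean, against 54 on hypoosmotic array 3 and 33 on hypoosmotic array 4. The other normoosmotic arrays had 16, 23 and 6 such genes, and hypoosmotic arrays 1 and 2 had 75 and 80. Hypoosmotic array 3 had the highest array median over all probe sets (4.05). Without it the median change of the 89 genes was 0.19 and 3 genes rose, Ndufa3, Ndufaf1 and Sdhaf1. Of these Sdhaf1 did not pass with all 8 arrays, and Sdhaf2, which did, was not called without hypoosmotic array 3. Without hypoosmotic array 2, the highest, the median was 0.12 and 1 gene rose, Ndufaf1.

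**Figure D2:**
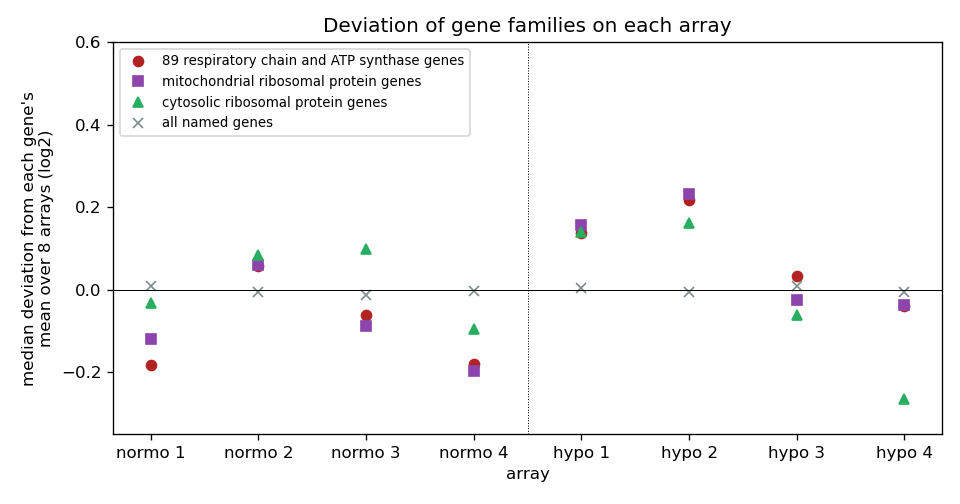
For each array (x axis) the points give the median deviation, in log2, of a gene family from each gene's mean over the 8 arrays (y axis), for the 89 genes, 68 mitochondrial ribosomal protein genes, 76 cytosolic ribosomal protein genes and all named genes. The 89 genes run from -0.18 to 0.22, close to the mitochondrial ribosomal protein genes, and the normoosmotic and hypoosmotic arrays overlap.

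Most of these genes gave high signals, and the median change of all genes with high signals was near 0. All genes were split by mean level into 10 equal groups, and 75 of the 89 fell in the 3 brightest, where their median change was 0.19 and 96.0% were above 0. The 4353 genes of these groups had a median change of -0.02, with 47.2% above 0. The 76 genes of the cytosolic ribosome, another set with high signals (median level 9.36), had a median change of -0.02, with 0 rises and 1 fall (1.32%). Their median deviations were -0.03, 0.08, 0.10 and -0.10 on normoosmotic arrays 1 to 4. On hypoosmotic arrays 1 to 4 they were 0.14, 0.16, -0.06 and -0.26. The sign was that of the 89 genes on all arrays but normoosmotic array 3 and hypoosmotic array 3. The 68 genes of the mitochondrial ribosome had a median change of 0.18, with 56 above 0 (82.4%), 1 rise (1.47%) and 0 falls. Of all genes 53.2% were above 0, 2.45% rose and 4.62% fell. Whether the 89 genes differ from these families, or whether signal level has a part in the offset, was not tested.

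**Figure D3:**
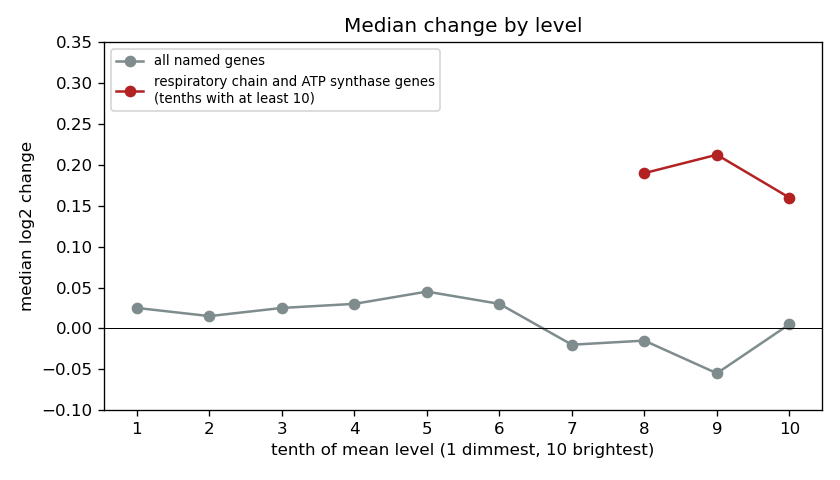
Genes were split by mean level into 10 equal groups (x axis, 1 dimmest, 10 brightest), and the y axis gives the median log2 change of all named genes (grey) and of the respiratory chain and ATP synthase genes (red, groups with at least 10 of them). The red points lie at 0.19, 0.21 and 0.16, above the grey points at -0.015, -0.055 and 0.005.

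Assembly factors held 2 of the 3 rises and spread more widely than subunits. The 2 rises were 15.4% of the 13 assembly factors, against 2.45% of all genes. Changes had an SD of 0.33 over the 13 genes, against 0.12 over the 75 subunits and 0.29 over all genes. The assembly factors had lower signals than the subunits, with median levels of 6.09 and 7.93. Their median changes were 0.10 and 0.18. Without hypoosmotic array 4 these medians were 0.20 and 0.21, so the difference between them rests on that array, and median centring gave 0.055 and 0.14. Ndufaf1 (CIA30), an assembly factor of the membrane arm of complex I, measured 5.79, 5.96, 5.42 and 5.73 in normoosmotic livers and 6.17, 6.43, 6.47 and 6.76 in hypoosmotic livers. The groups did not overlap, and the rise was 1.66-fold (log2 change 0.73 ± 0.15 SE, limma adjusted p = 0.0158). With 1 array left out it still passed each of the 8 times (adjusted p 0.0180 to 0.0486). Sdhaf2, which helps attach the flavin cofactor to the catalytic subunit of complex II, measured 7.64, 7.64, 7.48 and 7.42 against 7.79, 8.27, 8.02 and 8.06. All hypoosmotic values were the higher ones, and the rise was 1.40-fold (0.49 ± 0.12, adjusted p = 0.0336). Without 1 array it passed only when hypoosmotic array 1 was left out (0.0275), and the other 7 fits gave 0.0531 to 0.0959, highest without normoosmotic array 3. Median centring of the arrays ended the call too (0.0592).

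Ndufa3, a small accessory subunit of complex I, was the 1 subunit that passed. Its values were 6.31, 7.11, 6.96 and 6.84 in normoosmotic and 7.77, 7.31, 7.32 and 7.54 in hypoosmotic livers. The groups did not overlap although normoosmotic array 1 was far below the rest, and the rise was 1.60-fold (0.68 ± 0.17, adjusted p = 0.0398). It passed without normoosmotic array 2 (0.0385) or hypoosmotic array 3 (0.0454), while the other 6 fits gave 0.0636 to 0.101, highest without hypoosmotic array 1. The call was also lost with median centring (0.0629) and when all probe sets were tested together (0.0550).

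The promoters of these 3 genes are shown because they are the members that changed, with those of Sdha, the flavoprotein of complex II, and Ndufaf4, the gene with the largest decrease, for contrast. Each window runs from 250 bases before to 50 bases after the RefSeq transcription start (GRCr8, gene strand, 5′ to 3′). Capitals mark matches on either strand to sequences bound by factors known to drive nuclear respiratory genes. These were GCGC and TGCGC joined by any 1 base for NRF1, CCGGAAG for the ETS family, to which GABP belongs, and AAGATGGC for YY1.
Ndufaf1 (chr3:127103971-127104270, minus strand): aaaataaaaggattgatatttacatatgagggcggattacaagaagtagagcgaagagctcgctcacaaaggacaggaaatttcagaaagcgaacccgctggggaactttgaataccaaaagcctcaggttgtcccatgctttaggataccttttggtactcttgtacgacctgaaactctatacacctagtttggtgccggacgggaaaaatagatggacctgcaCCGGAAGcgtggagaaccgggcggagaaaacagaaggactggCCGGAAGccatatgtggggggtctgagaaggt
Sdhaf2 (chr1:216592619-216592918, minus strand): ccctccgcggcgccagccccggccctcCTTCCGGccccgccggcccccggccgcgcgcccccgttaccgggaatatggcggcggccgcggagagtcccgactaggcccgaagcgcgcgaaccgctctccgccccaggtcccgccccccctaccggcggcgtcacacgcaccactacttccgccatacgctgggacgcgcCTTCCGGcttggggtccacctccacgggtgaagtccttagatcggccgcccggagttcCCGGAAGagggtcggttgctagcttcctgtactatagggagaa
Ndufa3 (chr1:74515509-74515808, minus strand): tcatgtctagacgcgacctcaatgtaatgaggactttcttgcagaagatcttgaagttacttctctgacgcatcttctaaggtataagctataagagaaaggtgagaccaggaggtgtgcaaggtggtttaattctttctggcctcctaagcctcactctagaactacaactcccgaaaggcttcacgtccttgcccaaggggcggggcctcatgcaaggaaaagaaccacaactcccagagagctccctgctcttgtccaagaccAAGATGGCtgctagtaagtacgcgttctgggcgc
Sdha (chr1:30764303-30764602, plus strand): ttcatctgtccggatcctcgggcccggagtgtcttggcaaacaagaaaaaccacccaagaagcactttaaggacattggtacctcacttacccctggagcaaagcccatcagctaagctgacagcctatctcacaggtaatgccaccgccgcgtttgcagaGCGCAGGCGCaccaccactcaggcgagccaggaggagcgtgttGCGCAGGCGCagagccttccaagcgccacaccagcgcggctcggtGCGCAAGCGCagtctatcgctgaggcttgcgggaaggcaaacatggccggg
Ndufaf4 (chr5:43401545-43401844, plus strand): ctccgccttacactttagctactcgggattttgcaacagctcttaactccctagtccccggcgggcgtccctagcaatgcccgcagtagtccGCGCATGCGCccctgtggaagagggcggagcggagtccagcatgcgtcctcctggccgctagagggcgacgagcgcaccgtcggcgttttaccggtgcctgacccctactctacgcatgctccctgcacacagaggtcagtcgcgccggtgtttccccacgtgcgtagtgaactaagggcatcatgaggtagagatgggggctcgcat
The capitals are ETS matches in Ndufaf1 and Sdhaf2, a YY1 match in Ndufa3 and NRF1 matches in Sdha and Ndufaf4.

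A promoter was found for 79 of the 89 genes. The NRF1 sequence occurred in 17 of them (21.5%), against 7.38% of the 11974 promoters of named array genes and 4.71% of all 27457 promoters in the RefSeq table. The ETS sequence occurred in 27 (34.2%), against 12.9% and 9.22%, and the YY1 sequence in 13 (16.5%), against 4.23% and 3.44%. At least 1 of the 3 was present in 47 (59.5%), against 21.5% of named genes. In 6 promoters matches overlapped each other. These were NRF1 matches to GCGCATGCGC, which reads the same on both strands and was counted on each. In Ndufa11 shifted copies of this sequence also overlapped each other. The median change was 0.10 with and 0.18 without the NRF1 sequence, 0.18 on both sides for ETS, and 0.21 with and 0.17 without YY1. The ranges overlapped in each case, and no test was made. A match is a description of the letters, not a binding site.

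In complex I, 32 of 33 subunits were above 0 and 1 passed. The 6 measured core subunits, most of which carry the flavin or iron-sulfur clusters, had changes of 0.18 to 0.35 with a median of 0.32, the highest of the subunit classes. Ndufs1, the largest core subunit, measured 7.88, 7.74, 7.39 and 7.65 in normoosmotic and 8.13, 8.19, 7.88 and 7.84 in hypoosmotic livers. The groups overlapped slightly (0.34 ± 0.13, adjusted p = 0.155). Ndufv1, which binds NADH and the flavin, had a change of 0.18 ± 0.10 (SE, n = 4 each, adjusted p = 0.343). Ndufs3, at the base of the matrix arm, had the highest value of the core class (0.35 ± 0.13 SE, adjusted p = 0.134). Ndufv2, an iron-sulfur subunit beside Ndufv1, had tight groups that did not overlap, 8.58, 8.51, 8.48 and 8.50 against 8.81, 8.76, 8.87 and 8.80. Its adjusted p was 0.0766, and it was named after its values were seen.

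The 27 accessory subunits of complex I, which surround the core, ran from -0.06 (Ndufb3, adjusted p = 0.828) to the 0.68 of Ndufa3, with a median of 0.20. Among them Ndufb5, Ndufc2 and Ndufab1, the last also the mitochondrial acyl carrier protein, had groups that did not overlap without passing the test (adjusted p of 0.0846, 0.0944 and 0.184), as had Sdhd, a membrane anchor of complex II (0.352). They were named for this after their values were seen. For Ndufv3 the brighter probe set gave 0.10 and the dimmer one 0.41, so its value depends on the probe set. For the other 10 genes with several probe sets these differed by at most 0.09. Ndufs6-ps1 in this class and Cox6c-ps1 in complex IV carry pseudogene symbols. Probes of such copies may share signal with the parent gene.

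Of the other 2 complex I assembly factors, Ndufaf4 had the largest decrease of the 89 genes. It measured 6.68, 6.69, 7.08 and 6.53 in normoosmotic against 6.45, 6.38, 6.20 and 6.54 in hypoosmotic livers. Hypoosmotic array 4 reached into the normoosmotic range, and the change of -0.35 ± 0.13 did not pass (adjusted p = 0.15). Ndufaf3 had a change of 0.17 ± 0.12, with an adjusted p of 0.508.

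In complex II 1 assembly factor, Sdhaf2, passed, and 0 of 4 subunits did. The subunits had changes of 0.08 to 0.28 and 0 passed. Sdha, the catalytic flavoprotein, went from 8.97 ± 0.15 to 9.04 ± 0.09 (SD, n = 4 each, adjusted p = 0.771) and Sdhb, the iron-sulfur subunit, from 8.71 ± 0.19 to 8.88 ± 0.09 (0.489). Sdhc, a membrane anchor, had the highest value (0.28 ± 0.11 SE, adjusted p = 0.153). Sdhaf1, which assists the insertion of iron-sulfur clusters into Sdhb, measured 5.83, 6.51, 5.95 and 5.45 against 6.70, 6.65, 6.25 and 6.89. Normoosmotic array 2 lay above hypoosmotic array 3, and the change of 0.69 ± 0.21 did not pass (adjusted p = 0.0749). It did pass without normoosmotic array 2 (0.0248) or without hypoosmotic array 3 (0.0457), while the other fits without 1 array gave 0.146 to 0.179. Sdhaf3 had a change of 0.10 ± 0.17.

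**Figure D4:**
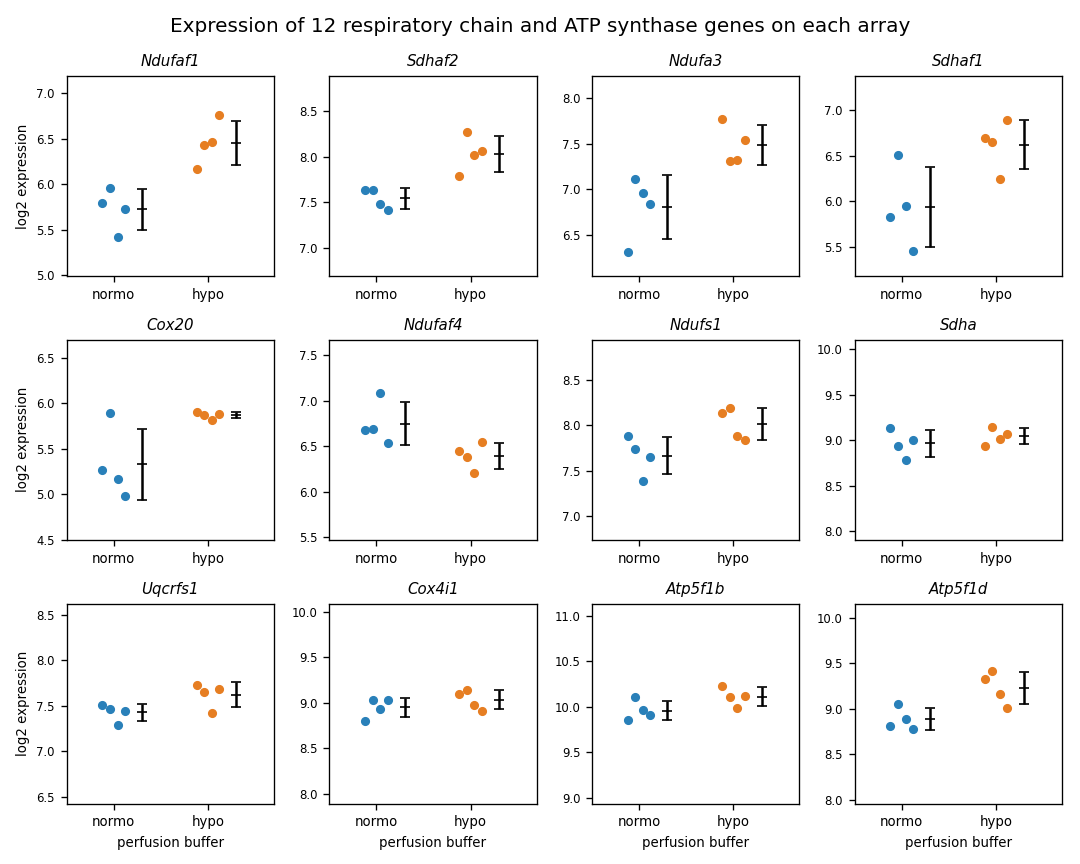
Log2 expression (y axis, each panel spanning the same range) of 12 respiratory chain and ATP synthase genes on the 4 normoosmotic (blue) and 4 hypoosmotic (orange) arrays, with mean and SD beside the points. Ndufaf1, Sdhaf2 and Ndufa3 do not overlap between the groups, while the catalytic genes Sdha and Atp5f1b and the subunit gene Cox4i1 do.

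All 7 complex III subunits were above 0 and 0 passed. Their median change was 0.10, and 0.17 without hypoosmotic array 4 or normoosmotic array 2. Uqcr11, a small subunit, had the highest value (0.32 ± 0.13, adjusted p = 0.205). The core protein gene Uqcrc1 went from 7.64 ± 0.14 to 7.75 ± 0.23 and Uqcrfs1, the Rieske iron-sulfur protein, from 7.43 ± 0.10 to 7.62 ± 0.14 (SD, n = 4 each). Their adjusted p-values were 0.757 and 0.344.

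The 16 complex IV subunits had a median change of 0.10, with 13 above 0, and 0 reached an unadjusted p under 0.05. Of them 4, Cox4i2, Cox8b, Cox8c and Cox6c-ps1, lay below 3.07, a level that 95% of 1105 genes for odorant receptors did not exceed, taken as near background. Among isoforms known from lung and muscle, Cox4i2 was at 2.36 ± 0.22 and 2.43 ± 0.10, Cox6a2 at 4.42 ± 0.21 and 4.38 ± 0.10, and Cox8b at 2.94 ± 0.07 and 3.10 ± 0.08 in normoosmotic and hypoosmotic livers. The testis isoform Cox6b2 had a change of -0.09 ± 0.17 SE, the lowest of the class. The isoforms known from liver did not pass either. Cox4i1 went from 8.95 ± 0.11 to 9.03 ± 0.11, Cox6a1 from 9.73 ± 0.13 to 9.90 ± 0.13, Cox7a2 from 8.46 ± 0.08 to 8.57 ± 0.10 and Cox8a from 9.94 ± 0.14 to 10.16 ± 0.12 (SD, n = 4 each), with adjusted p-values of 0.733, 0.445, 0.636 and 0.299. Cox5a, a subunit near the matrix side, and Ndufa4, first assigned to complex I and now to complex IV, had changes of 0.08 ± 0.10 and 0.09 ± 0.10 SE. Cox6b1, Cox7a1 and Ndufa4l2 were not analysed here.

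Of the 7 complex IV assembly and supercomplex factors, 4 were above 0 and 0 passed. Cox20, a chaperone of the mitochondrially encoded subunit 2, measured 5.27, 5.89, 5.17 and 4.98 in normoosmotic and 5.90, 5.87, 5.82 and 5.88 in hypoosmotic livers. The hypoosmotic values were tight and normoosmotic array 2 lay among them. Its change of 0.54 ± 0.17 had an adjusted p of 0.0835, and of 0.0119 without that array. The other fits without 1 array gave 0.116 to 0.206. Cox11, a copper chaperone, had the lowest value (-0.16 ± 0.11, adjusted p = 0.479).

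All 15 ATP synthase subunits were above 0 and 0 passed, with changes of 0.02 to 0.34 and a median of 0.18. Atp5f1d, the delta subunit of the central stalk, had the highest value. It measured 8.81, 9.05, 8.89 and 8.78 against 9.33, 9.41, 9.16 and 9.01, so that normoosmotic array 2 just exceeded hypoosmotic array 4 (0.34 ± 0.12, adjusted p = 0.110). The catalytic beta subunit Atp5f1b went from 9.96 ± 0.11 to 10.11 ± 0.10 and its partner Atp5f1a from 9.99 ± 0.10 to 10.14 ± 0.10 (SD, n = 4 each, adjusted p of 0.457 and 0.477). The 3 genes of the identical membrane-ring subunit c, Atp5mc1, Atp5mc2 and Atp5mc3, had changes of 0.17 ± 0.12, 0.18 ± 0.13 and 0.21 ± 0.11 SE, each within the error of the others. Atp5if1 had a change of 0.04 ± 0.14 (adjusted p = 0.934).

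Other genes of the pathway were read from lists outside the 89. Of 27 further assembly factors 2 (7.41%) rose and 0 fell, against 2.45% and 4.62% of all genes. Their median change was 0.12, and 0.21 without hypoosmotic array 4 or 0.19 without normoosmotic array 2. Tmem70, an assembly factor of ATP synthase, rose from 6.34 ± 0.15 to 6.91 ± 0.16 (SD, n = 4 each, limma adjusted p = 0.0172), with groups that did not overlap. It passed in 6 of 8 fits without 1 array (0.0145 to 0.0586, highest without normoosmotic array 3). Lyrm7, which guards the Rieske protein before insertion, rose by 0.54 ± 0.14 SE (adjusted p = 0.0401). It passed in 2 of the 8 fits (0.0250 to 0.107, highest without normoosmotic array 1), and its groups touched at 3.75. Tmem126b, a complex I assembly factor, had non-overlapping groups and an adjusted p of 0.0535 (0.49 ± 0.14).

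Of 20 genes of electron carriers and coenzyme Q, 1 rose and 1 fell (5% each, against 2.45% and 4.62% of all genes). Their median change was 0.16, and 0.10 without hypoosmotic array 1. Coq3, a methyltransferase of coenzyme Q synthesis, rose from 6.30 ± 0.24 to 6.82 ± 0.09 (adjusted p = 0.0361). It passed in 2 of 8 fits without 1 array (0.0221 to 0.0901, highest without normoosmotic array 1). Sqor, which feeds electrons from sulfide to coenzyme Q, measured 7.42, 7.43, 7.45 and 7.53 in normoosmotic and 6.16, 6.25, 7.43 and 6.34 in hypoosmotic livers. Hypoosmotic array 3 sat at the normoosmotic level and the other 3 lay far below it (-0.91 ± 0.24, adjusted p = 0.0414). Without that array the adjusted p was 0.00120, and in the other 7 fits 0.0847 to 0.112. Etfdh, which passes electrons from fatty acid oxidation, had a change of 0.26 ± 0.10 (adjusted p = 0.143).

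Of 23 measured regulators of mitochondrial biogenesis, 5 (21.7%) fell and 1 (4.35%) rose, where 4.62% of all genes fell and 2.45% rose. Their median level of 5.48 lay in level group 7, where 8.82% of all genes fell and 4.41% rose. The regulators had a median change of -0.08, and of 0.01 without hypoosmotic array 3. Ppargc1a, the coactivator PGC-1alpha, measured 5.04, 5.30, 4.87 and 4.37 in normoosmotic and 5.47, 6.21, 6.41 and 6.15 in hypoosmotic livers, a 2.24-fold rise (adjusted p = 0.0132). Its relative Pprc1 went the other way, at 6.77, 6.82, 7.03 and 6.97 against 6.31, 6.18, 5.42 and 6.15, which is 1.84-fold lower (adjusted p = 0.0153, and 0.0507 without normoosmotic array 3). Yy1, a factor of respiratory gene promoters, fell from 7.42 ± 0.14 to 6.79 ± 0.13 (SD, n = 4 each, adjusted p = 0.00924) and passed in all 8 fits without 1 array. In all 3 genes the groups did not overlap. Creb1 (-0.55 ± 0.12 SE), a factor that binds the Ppargc1a promoter, Tfb2m (-0.62 ± 0.15), a transcription factor of mitochondrial DNA, and Mterf3 (-0.55 ± 0.14), a repressor of that transcription, fell as well and were named after their values were seen. These 3 passed in 5, 1 and 1 of the 8 fits without 1 array. Highest values were 0.0556 without normoosmotic array 2, 0.0890 without hypoosmotic array 2 and 0.0914 without normoosmotic array 1. Nrf1 (-0.08 ± 0.12), Gabpa (-0.25 ± 0.12), Esrra (0.14 ± 0.13) and Tfam (-0.21 ± 0.13) did not pass, with adjusted p-values of 0.803, 0.279, 0.640 and 0.426.

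**Figure D5:**
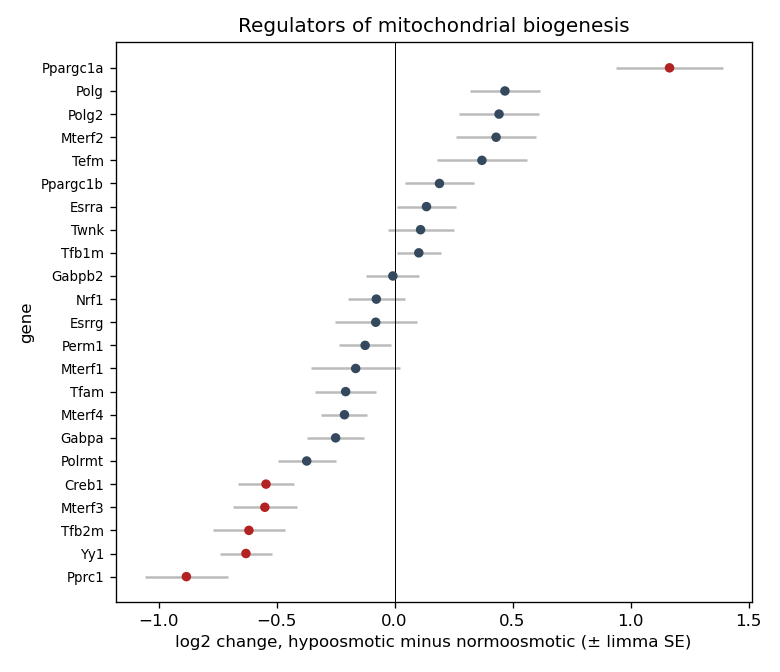
Log2 change from normoosmotic to hypoosmotic perfusion with limma SE (x axis, n = 4 per group) for 23 regulators of mitochondrial biogenesis (y axis); red marks an adjusted p under 0.05. Ppargc1a stands at 1.16, while Pprc1, Yy1, Tfb2m, Mterf3 and Creb1 lie between -0.88 and -0.55.

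Around the respiratory chain, 15 genes of the citric acid cycle had a median change of 0.13 with 0 calls. The lowest p-value was that of Mdh2, mitochondrial malate dehydrogenase, at 9.02, 9.12, 9.01 and 8.99 against 9.49, 9.49, 9.43 and 9.20 (adjusted p = 0.0545). It passed without hypoosmotic array 4 (0.0292), while the other fits without 1 array gave 0.0811 to 0.135. Idh3g and Idh2, isocitrate dehydrogenase genes, had changes of 0.37 ± 0.12 and 0.41 ± 0.14 (adjusted p of 0.108 and 0.112). Of 23 genes of mitochondrial protein import 2 (8.70%) fell and 0 rose, against 4.62% and 2.45% of all genes. Their median change of 0.04 had no stable sign, at -0.01 without hypoosmotic array 2 or normoosmotic array 4 and 0.07 without normoosmotic array 2. Timm9, a chaperone of the space between the membranes, fell from 6.77 ± 0.16 to 6.03 ± 0.27 (adjusted p = 0.0134) and passed in all 8 fits. Chchd4, the import receptor of that space for proteins with disulfide bonds, fell by 0.60 ± 0.15 on the log2 scale (adjusted p = 0.0405). It passed in 1 of 8 fits (0.0483 to 0.101, highest without normoosmotic array 2). Timm8a1, another small chaperone, had a change of -0.20 ± 0.10 (adjusted p = 0.254).

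Of 10 genes of ATP export and uncoupling, 1 rose and 1 fell, against 2.45% and 4.62% of all genes. Slc25a4, an ADP/ATP carrier, measured 6.63, 6.88, 6.72 and 6.72 against 5.95, 6.00, 6.06 and 6.38, so that all hypoosmotic values were lower (-0.64 ± 0.12, adjusted p = 0.0111), and it passed in all 8 fits. The paralog Slc25a5 had a change of -0.10 ± 0.10 (adjusted p = 0.652) and was named after its value was seen. Ucp2, an uncoupling protein known from macrophages, rose by 0.40 ± 0.10 (adjusted p = 0.0420). It passed in 1 of 8 fits (0.0321 to 0.111, highest without hypoosmotic array 2). Vdac3, a channel of the outer membrane, had a change of 0.29 ± 0.12 (adjusted p = 0.177).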

How the data were processed

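The authors deposited log2 expression values of 27596 probe sets on 8 arrays. The submitters' processing notes name RMA, Transcriptome Analysis Console 4.0 and Affymetrix Expression Console without saying which made the values. Since RMA equalises arrays, it can hide a shift common to most genes. The genome build of the probes is not given in the sources used here.

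Of the probe sets 15316 had 1 gene symbol in the platform annotation, and a RefSeq table (GRCr8) changed 2 of these symbols. The brightest probe set of each of 14511 genes was used. Groups and replicate numbers came from the sample titles.

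The test was limma (3.58.1, under R 4.3.3; lmFit, eBayes, group as the only term), two-sided, with Benjamini-Hochberg adjustment over all genes and a threshold of 0.05. Intervals are SD (n = 4) for levels and limma SE for changes. The genes, lists, classes and alternatives were chosen with earlier results of these data known. Named genes were those past the threshold, the highest and lowest of each class, catalytic and isoform genes, 5 regulators (Ppargc1a, Nrf1, Gabpa, Esrra, Tfam), and the 3 smallest p-values of each further list. The near-background level was added after seeing the data. Motifs were searched in RefSeq promoters, and the method was tested on simulated data. Tables and plots were made with pandas 2.3.3 and matplotlib 3.10.9 (Python 3.11.15). Alternatives were other normalizations, variance models, probe set rules and thresholds, the replicate number as a block, and leaving out each array.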

Additional observations from a re-analysis of the deposited data

Results flagged for a closer look

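In 3 of 114 groups of 4 arrays checked, 1 array lay far from the other 3 relative to the range of its group, where chance gives about 1 in 20, or 5.7. Cox5a measured 8.78 on hypoosmotic array 3, against 8.99 to 9.01 on the other hypoosmotic arrays. Cox8b, which is near background, measured 2.98 on hypoosmotic array 4, against 3.13 to 3.15. Sqor measured 7.43 on hypoosmotic array 3, against 6.16 to 6.34.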

How the results depend on the processing

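Of 439 values of gene counts, list medians and motif shares compared with an alternative, 412 stayed within the bounds set for a like value, and of 1006 values of the 56 named genes 904 kept their direction and side of the threshold, while 82 calls were lost, 12 were gained and 8 values of 5 uncalled genes near 0 (Atp5if1, Cox6b2, Cox4i2, Cox6a2 and Nrf1) changed sign. No called gene among the 56 changed direction. The number of respiratory chain genes that rose was 1 with median centring of the arrays, when 76 of 89 were above 0, and 0 against a minimum fold change of 1.2. It ranged from 1 to 4 with 1 array left out (1 without normoosmotic array 1, 3 or 4 or hypoosmotic array 2), and 0 fell in each of these fits. Fewer arrays also mean less power. Their median change ranged from 0.12 to 0.23 with 1 array left out and was 0.13 with median centring, 0.19 with array weights and 0.19 with a further quantile normalization. Over all genes, 235 rose with median centring, when 44.3% were above 0 and their median change was -0.025. Against the minimum fold change 23 of all genes rose and 60 fell, and with 1 array left out 137 to 392 rose and 331 to 659 fell. The median of the biogenesis regulators ranged from -0.125 to 0.0108 with 1 array left out, the latter without hypoosmotic array 3. The median of ATP export and uncoupling genes was -0.0213 with median centring and ranged from -0.0408 to 0.0613 with 1 array left out. With 1 array left out, the median of the complex IV assembly factors ranged from -0.0675 to 0.114, that of the complex I assembly factors from 0.0825 to 0.2425 and that of the citric acid cycle from 0.0817 to 0.173. None of the 56 genes passed against the minimum fold change. With median centring Sdhaf2, Ndufa3, Lyrm7 (0.0651), Coq3 (0.0684) and Ucp2 (0.0738) were not called, and Sqor was not with a further quantile normalization (0.0713) or the mean of its probe sets (0.0940). With all probe sets tested, Ndufa3, Lyrm7 (0.0555), Coq3 (0.0502), Sqor (0.0569), Chchd4 (0.0562) and Ucp2 (0.0596) were not called. Lyrm7 was also lost with the quantile normalization (0.0584) and Ucp2 with an intensity trend and robust variances (0.0559). On the forward strand alone the motif shares were 11.4% for NRF1, 15.2% for ETS and 35.4% for any motif, since the other strand is then not searched. The cause of the other shifts was not tested. Deviations of same-numbered arrays correlated at 0.01, 0.26, 0.12 and 0.06 across genes. For normoosmotic arrays 2, 3 and 4 the same-numbered hypoosmotic array gave the highest correlation. Whether the replicate numbers mark pairs is thus not settled, and the main fit did not take them as pairs. With the replicate block, the rises among the 89 genes were 2 and the median change stayed 0.175. Ndufa3 (adjusted p = 0.0778), Lyrm7 (0.0518), Coq3 (0.0532) and Ucp2 (0.0699) were then not called, and Tmem126b was (0.0298). Without members near background and pseudogenes, an alternative chosen after seeing the data, 3 rose and 0 fell.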
